A study of Homo sapiens with 12 samples.

Results

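The long-chain acyl-CoA synthetases ACSL1, ACSL3, ACSL4, ACSL5 and ACSL6 were followed through RNA-seq of LNCaP cells, an androgen-responsive line derived from a lymph node metastasis of prostate cancer. The 5 genes were taken by name from the 34643 rows of the deposited table of estimated counts, and all 5 were among the 15419 genes that passed a filter on low counts. The family was selected on its mRNA levels in these 4 groups, which were already known, so its differences between groups are described with standard errors and carry no test. The cells had been transduced with lentiviral pLKO.1-puro carrying, under the U6 promoter, either a scramble control shRNA (shScramble, here sh_scramble) or an shRNA against TMEFF2 (shTMEFF2, here sh_TMEFF2), and were kept under puromycin. Which TMEFF2 shRNA was used is not given in the sources used here. All cells, controls included, spent 24 h in charcoal-stripped serum, which removes androgen, and were then given 10 nM dihydrotestosterone (DHT) or ethanol vehicle for 24 h. Each line was thus sequenced without (−DHT) and with (+DHT) hormone, in 3 libraries per condition and 12 in all. The 3 repeats were separate treatments and RNA extractions drawn from 2 transductions, and the labels do not say which repeat came from which, so the spread between repeats is in part technical.

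Long-chain fatty acids enter most of their metabolic routes once they are joined to coenzyme A, and the ACSL enzymes are among those that carry out that step. The acyl-CoA they make is built into phospholipids and triglycerides, stored in lipid droplets, or handed to the carnitine shuttle for oxidation in mitochondria. The members differ in where they sit in the cell and in the fatty acids they prefer. In prostate cancer cells the androgen receptor, the transcription factor that DHT activates, is known to raise genes of lipid synthesis.

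Library totals lay between 19450953 and 22612216 estimated counts. The luminal prostate marker KLK3 stood at 255 to 7737 TMM-scaled CPM (counts scaled to a common library total) per library and the luminal keratin KRT8 at 413 to 1272 CPM, while the basal marker KRT5 was at 0 in all 12 libraries and the marker sums of basal cells, fibroblasts, endothelium, leukocytes, neuroendocrine cells and adipocytes did not exceed 33.8 CPM. The mRNA of the shRNA target TMEFF2 spanned 73.8 to 103 CPM in sh_scramble −DHT and 39.3 to 81.7 CPM in sh_TMEFF2 −DHT, and 117 to 173 CPM and 90.1 to 142 CPM with DHT. TMEFF2 was lower in the sh_TMEFF2 line by a log2 fold change of −0.43 (standard error, SE, 0.25, edgeR adjusted p = 0.503) without DHT and −0.41 (SE 0.25, adjusted p = 0.304) with DHT. The groups overlapped in both comparisons, so the 2 lines are named here by their labels, not by a separation at the mRNA level in these libraries. The paper itself reports silencing of TMEFF2 in LNCaP cells, citing Western blots and mRNA levels. On its blot, not every TMEFF2 shRNA tried gave appreciable silencing. The libraries described here are bulk, and fewer cells of a kind cannot be told apart from less RNA per cell.

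The 5 members lie on 5 chromosomes (GRCh38, GENCODE annotation). ACSL3 occupies chr2:222860942-222944639 on the forward strand, with 17 exons in its canonical transcript of 5577 bases. ACSL1 occupies chr4:184755595-184826818 on the reverse strand, with 21 exons and 3712 bases. ACSL4 is on chromosome X at chrX:109624244-109733403, reverse strand, ACSL5 at chr10:112374116-112428379, forward strand, and ACSL6 at chr5:131949973-132012243, reverse strand. Each gene overlaps 2 to 4 other annotated genes, among them the antisense ACSL3-AS1 and ACSL6-AS1 and, for ACSL5, ZDHHC6 on the opposite strand. Whether the quantification used strand is not given in the sources used here, so reads of such partners may be mixed with those of the member.

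The promoters of ACSL3 and ACSL1 are shown because these 2 genes supplied nearly all of the family's mRNA and differed in the size of their DHT response. The sequences come from RefSeq (GRCh38.p14) and hold the 250 bases before the first transcribed base, read 5′ to 3′ along the gene, with capitals for matches on either strand to the GC box GGGCGG or the CCAAT box. Neighbouring matches may overlap or abut and then run together.

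ACSL3, chr2:222860786-222861035, forward strand: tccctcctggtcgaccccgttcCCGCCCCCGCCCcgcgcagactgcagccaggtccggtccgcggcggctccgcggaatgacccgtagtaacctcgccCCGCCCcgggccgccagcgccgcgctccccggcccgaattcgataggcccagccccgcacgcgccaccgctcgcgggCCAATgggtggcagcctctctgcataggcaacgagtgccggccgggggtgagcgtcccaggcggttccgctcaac

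ACSL1, chr4:184825969-184826218, reverse strand: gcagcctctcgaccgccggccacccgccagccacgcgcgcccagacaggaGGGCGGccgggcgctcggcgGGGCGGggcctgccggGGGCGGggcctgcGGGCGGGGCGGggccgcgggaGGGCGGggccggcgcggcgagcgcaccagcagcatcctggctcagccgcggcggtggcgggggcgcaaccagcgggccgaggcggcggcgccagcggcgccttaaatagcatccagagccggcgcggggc

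The ACSL3 window had a GC content of 75.2% and held 3 GC boxes and 1 CCAAT box. The ACSL1 window had a GC content of 83.6%, against a median of 58.0% over 35116 RefSeq promoters of the same length, and held 6 GC boxes and no CCAAT box. GC boxes were found in 42.6% and CCAAT boxes in 32.0% of all those promoters. The full androgen response element (AGAACA, any 3 bases, TGTTCT), the short element AGAACA and the sterol element TCACCCCAC, also searched on both strands, had no match in either window, against 0.00285%, 12.4% and 0.362% of all promoters. This says only that these letters are not in these windows. RefSeq lists 1 start for ACSL3 but 5 for ACSL1, and the window shown is that of the canonical transcript. Of the 4 other ACSL1 windows, 1 held the sterol element with a CCAAT box and a GC box, and another held 2 matches to AGAACA.

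ACSL3, an enzyme of the endoplasmic reticulum and of lipid droplets that activates fatty acids for phospholipid and neutral lipid synthesis, showed the widest range of the family. In sh_scramble −DHT its level was 179, 218 and 173 CPM in replicates 1, 2 and 3 (190 ± 24.1, SD, n = 3). In sh_scramble +DHT it was 1185, 1231 and 1007 CPM (1141 ± 118). Every DHT-treated sh_scramble library therefore stood far above every untreated one, with a log2 fold change of 2.59 (SE 0.12), a 6.01-fold difference. In sh_TMEFF2 −DHT the level was 162, 167 and 186 CPM (172 ± 12.3), within the range of the untreated control cells or just below it. In sh_TMEFF2 +DHT it was 221, 280 and 286 CPM (262 ± 35.9). These 3 libraries were also above all their untreated counterparts, but by a log2 fold change of 0.61 (SE 0.12), or 1.52-fold. With DHT the sh_TMEFF2 line was lower than sh_scramble by 4.35-fold (log2 fold change −2.12, SE 0.12) with no overlap, whereas without DHT the lines overlapped (−0.14, SE 0.11). The DHT responses of the lines differed by −1.98 on the log2 scale (SE 0.16). The sh_TMEFF2 response lay close to the fold limit of 1.5 used for calls and was under it, at log2 fold changes of 0.55 to 0.57, without sh_TMEFF2 −DHT replicate 1, +DHT replicate 2 or +DHT replicate 3.

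ACSL1, found at the mitochondrial outer membrane and the endoplasmic reticulum and linked to both fatty acid oxidation and triglyceride synthesis, was the most abundant member outside the DHT-treated control cells. Its level was 285, 374 and 371 CPM in sh_scramble −DHT (343 ± 50.5). In sh_scramble +DHT it was 481, 505 and 533 CPM (506 ± 26.0). The DHT-treated libraries were all higher, by a log2 fold change of 0.56 (SE 0.10), or 1.47-fold, just under the fold limit. In the sh_TMEFF2 line ACSL1 was at 318, 339 and 382 CPM without DHT (346 ± 32.7) and at 355, 401 and 413 CPM with it (390 ± 30.7). These groups overlapped, with a log2 fold change of 0.17 (SE 0.10). Without DHT the lines had nearly the same mean (0.01, SE 0.10). With DHT the 3 sh_TMEFF2 libraries were below the 3 sh_scramble libraries (−0.38, SE 0.10), and the responses differed by −0.39 (SE 0.15).

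ACSL4, which prefers arachidonic acid and other polyunsaturated fatty acids and so supplies the lipids most prone to peroxidation, was low and varied most between repeats. Its level was 16.5, 11.8 and 7.29 CPM in sh_scramble −DHT (11.9 ± 4.61), and 8.58, 5.37 and 7.05 CPM in sh_scramble +DHT (7.0 ± 1.61). In sh_TMEFF2 it was 9.23, 5.13 and 4.92 CPM without DHT (6.43 ± 2.43) and 6.81, 4.75 and 4.72 CPM with it (5.42 ± 1.20). All 4 comparisons of groups overlapped. The log2 fold change with DHT was −0.76 (SE 0.31) in sh_scramble and −0.24 (SE 0.32) in sh_TMEFF2, and the line difference was −0.89 (SE 0.31) without DHT and −0.37 (SE 0.32) with DHT. The difference of the responses, 0.52, had an SE of 0.44. In each of the 3 other groups, as in sh_scramble −DHT, replicate 1 held the highest ACSL4 level. Compared by replicate number, every sh_TMEFF2 library was below its sh_scramble counterpart, without and with DHT. Every DHT-treated library was likewise below its untreated counterpart. The main fit, and with it the SEs above, does not use the numbers as pairs. For a fit that takes them as a block, only the calls are given, at the end.

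ACSL6, known mainly from brain, where it activates docosahexaenoic acid, was in the same low range. It measured 6.92, 5.96 and 4.65 CPM in sh_scramble −DHT (5.84 ± 1.14). The other groups were lower, at 3.23, 4.59 and 3.05 CPM in sh_scramble +DHT (3.62 ± 0.841), 3.65, 2.74 and 4.32 CPM in sh_TMEFF2 −DHT (3.57 ± 0.789) and 2.87, 3.47 and 3.38 CPM in sh_TMEFF2 +DHT (3.24 ± 0.323). The sh_scramble −DHT libraries were thus the highest, though narrowly, with 4.65 CPM in replicate 3 against 4.59 CPM in sh_scramble +DHT replicate 2. They did not overlap with sh_scramble +DHT (log2 fold change −0.69, SE 0.23) or with sh_TMEFF2 −DHT (−0.71, SE 0.22), and these comparisons share those 3 libraries. The remaining pairs overlapped, with log2 fold changes of −0.14 (SE 0.23) for DHT in sh_TMEFF2 and −0.16 (SE 0.23) for the line with DHT.

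ACSL5, a synthetase of mitochondria and endoplasmic reticulum that is abundant in intestine and liver, was near the bottom of what could be measured, with 8.30 to 37.0 estimated counts per library. It reached 1.40, 0.873 and 1.66 CPM in sh_scramble −DHT (1.31 ± 0.403) and 0.454, 0.732 and 0.400 CPM in sh_scramble +DHT (0.529 ± 0.178). In sh_TMEFF2 it was 1.15, 0.885 and 0.975 CPM without DHT (1.00 ± 0.137) and 1.71, 1.05 and 1.38 CPM with it (1.38 ± 0.332). The DHT-treated sh_scramble libraries were the lowest of all 12. The log2 fold change with DHT was −1.30 (SE 0.35) in sh_scramble and 0.46 (SE 0.32) in sh_TMEFF2. In sh_TMEFF2 the libraries without and with DHT overlapped, so the direction of any change in that line was not settled. With DHT the sh_TMEFF2 line was higher by 1.37 (SE 0.35), and the responses differed by 1.76 (SE 0.48). At this depth a few reads move the value, and with only the second or only the first of the 2 count columns of each library the sh_scramble response was −1.77 or −0.91.

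**Figure D1:**
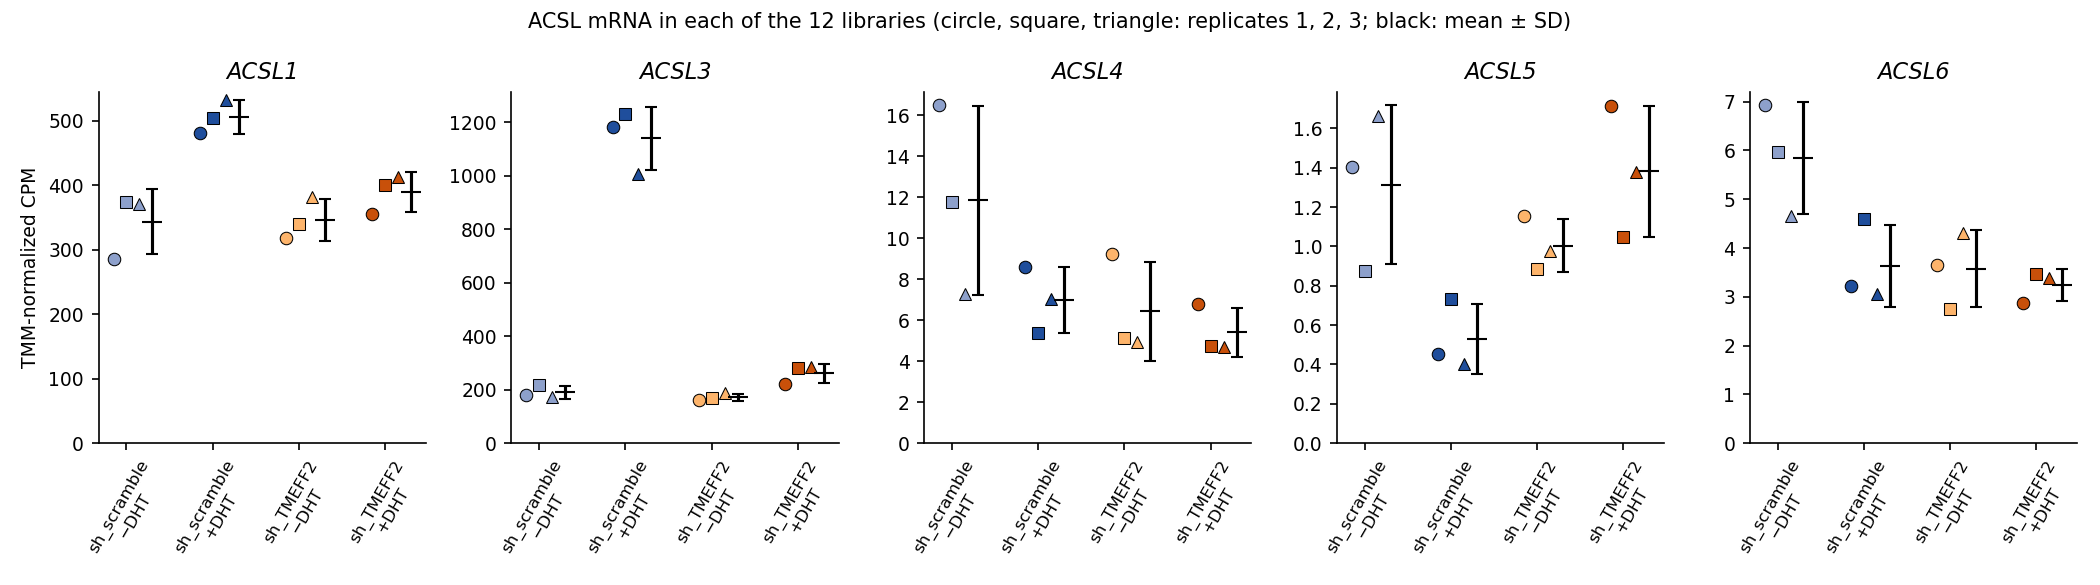
TMM-normalized CPM (vertical axis, linear from 0) of the 5 ACSL genes in each of the 12 libraries, in the 4 groups along the horizontal axis; circles, squares and triangles are replicates 1, 2 and 3, and the black marks give the mean ± SD. ACSL3 stands at 1007 to 1231 CPM in sh_scramble +DHT and at 162 to 286 CPM in every other group, while ACSL4, ACSL5 and ACSL6 stay at or below 16.5 CPM.

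Set against all genes, the members' calls were as follows, a call being a fold change of at least 1.5 with a Benjamini-Hochberg adjusted p of at most 0.05. With DHT in sh_scramble, 3 of 5 members were past these limits, ACSL3 higher and ACSL5 and ACSL6 lower, where 5.45% of all tested genes were called higher and 6.45% lower. In the same comparison the groups did not overlap for 4 of 5 members, against 41.8% of all genes. Whether ACSL1, ACSL4, ACSL5 and ACSL6 were past the limits changed with single libraries. Of ACSL5 and ACSL6, neither passed without sh_scramble +DHT replicate 1 or replicate 3, ACSL5 alone passed without −DHT replicate 1 or replicate 2, and ACSL6 alone passed without −DHT replicate 3. ACSL1 was past the limits, at log2 fold changes of up to 0.62, without −DHT replicate 2, −DHT replicate 3 or +DHT replicate 1, and ACSL4, at −1.01, only without −DHT replicate 3 among these fits. With DHT in sh_TMEFF2, 1 of 5 members (ACSL3) was past the limits and the same 1 did not overlap, where 3.28% of genes were called higher, 1.6% lower and 31.3% did not overlap.

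Between the lines without DHT no member was past the limits in the main edgeR fit or in DESeq2, though ACSL4 was with the replicate number as a block. ACSL6 alone did not overlap, where 0.298% of genes were called higher, 0.272% lower and 18.5% did not overlap. With DHT, 2 of 5 members were past the limits, ACSL3 lower and ACSL5 higher in sh_TMEFF2, and 3 did not overlap (ACSL1, ACSL3 and ACSL5), where 3.03% of genes were called higher, 3.74% lower and 32.5% did not overlap. ACSL5 was no longer past the limits in that comparison without sh_scramble +DHT replicate 1 or 3, or sh_TMEFF2 +DHT replicate 1. For the difference of the DHT responses an adjusted p of at most 0.05 alone made a call, and 1 of 5 members (ACSL3) was past it. Over all genes, 1.65% were called with a higher and 3.29% with a lower log2 fold change in sh_TMEFF2. With scaling by library size alone the split of all calls moved from 467 higher and 577 lower to 624 and 470 for the lines with DHT, and from 254 and 507 to 370 and 398 for the difference of responses. Since the family was selected with these values known, nothing is read from its counts.

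**Figure D2:**
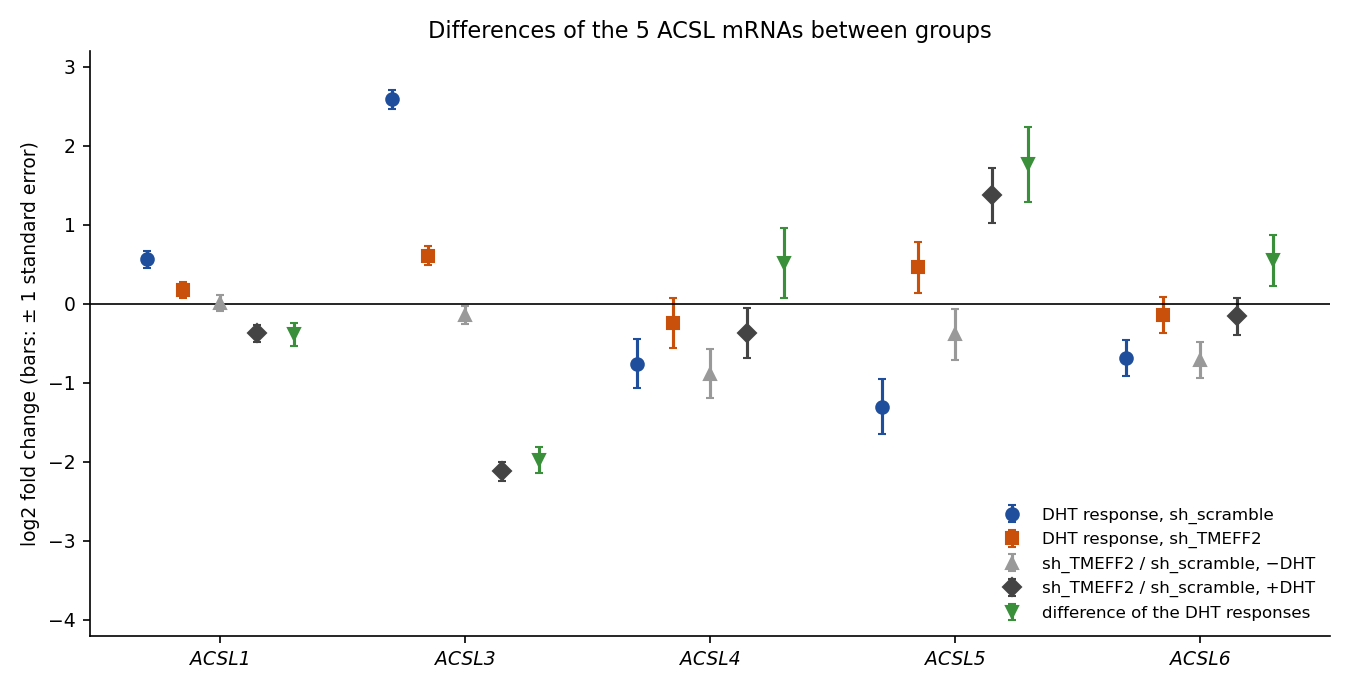
Log2 fold changes (vertical axis) of the 5 ACSL genes (horizontal axis) in the 5 comparisons, with bars of ± 1 SE from the edgeR fit; circles and squares are the DHT responses of sh_scramble and sh_TMEFF2, triangles and diamonds the sh_TMEFF2 line over sh_scramble without and with DHT, and inverted triangles the difference of the responses. ACSL3 moves from 2.59 in sh_scramble to 0.61 in sh_TMEFF2, and ACSL5 from −1.30 to 0.46 with wider bars.

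Levels of different members were compared per kilobase of canonical transcript. In sh_scramble −DHT the order was ACSL1 (92.5 ± 13.6 CPM per kilobase), ACSL3 (34.1 ± 4.33), ACSL4 (2.42 ± 0.943), ACSL6 (0.894 ± 0.175) and ACSL5 (0.404 ± 0.124). The order of the first 2 was turned in sh_scramble +DHT, with ACSL3 at 205 ± 21.2 and ACSL1 at 136 ± 7.02 CPM per kilobase. In sh_TMEFF2 ACSL1 stayed first both without DHT (93.3 ± 8.81 against 30.8 ± 2.21 for ACSL3) and with it (105 ± 8.26 against 47.0 ± 6.43). ACSL4 and ACSL6 have no firm order. With the median length of the coding transcripts, 2339 bases for ACSL6 in place of 6535, ACSL6 was at 2.50 ± 0.488 and ACSL4 at 2.39 ± 0.928 CPM per kilobase in sh_scramble −DHT. In sh_TMEFF2 +DHT, with the canonical lengths, ACSL6 and ACSL5 were close, at 0.496 ± 0.0495 and 0.424 ± 0.102 CPM per kilobase. With the median coding lengths they were at 1.39 ± 0.138 and 0.421 ± 0.101.

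ACSL1 made up 70.8% ± 3.69 of the summed family in sh_scramble −DHT and 39.8% ± 3.61 in sh_scramble +DHT, while ACSL3 went from 26.2% ± 2.68 to 59.5% ± 3.60. In sh_TMEFF2 the ACSL1 share was 73.8% ± 0.878 without DHT and 68.2% ± 1.11 with it, and the ACSL3 share 24.4% ± 0.337 and 30.4% ± 1.43. ACSL4, ACSL5 and ACSL6 together were the remainder, none above a mean share of 1.92%. The summed level was 130 ± 15 CPM per kilobase in sh_scramble −DHT, 343 ± 16.3 in sh_scramble +DHT, 126 ± 10.7 in sh_TMEFF2 −DHT and 154 ± 14.4 in sh_TMEFF2 +DHT. The highest untreated sh_scramble library, at 143 CPM per kilobase, was below the lowest treated one, at 326, whereas in sh_TMEFF2 the untreated range, 117 to 138, overlapped the treated range, 138 to 164.

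**Figure D3:**
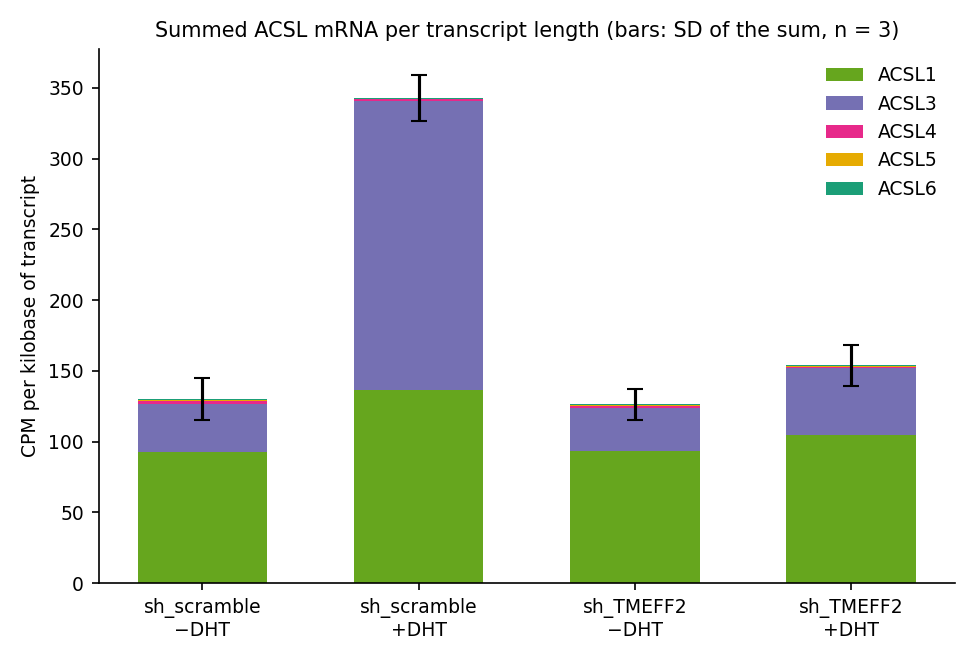
Stacked mean CPM per kilobase of canonical transcript (vertical axis) of the 5 ACSL genes in the 4 groups (horizontal axis), with bars for the SD of the sum over 3 libraries. The sum is 343 in sh_scramble +DHT, mostly ACSL3, and between 126 and 154 in the 3 other groups, mostly ACSL1.

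The genes most like each member were taken as those with the smallest root-mean-square difference of centred log2 CPM over the 12 libraries, among genes with a mean of at least 5 CPM. For ACSL3, whose own values spread by 1.10 around their mean, these were PMEPA1 (0.19), ABCC4 (0.22) and CENPN (0.22). PMEPA1, an androgen-induced membrane protein, had log2 fold changes with DHT of 2.39 in sh_scramble and 0.45 in sh_TMEFF2, ABCC4, an export pump, 2.07 and 0.82, and CENPN, a centromere protein, 2.17 and 0.93. For ACSL1, with a spread of 0.26, they were SREBF2 (0.076), GCFC2 (0.078) and TRIM11 (0.079). SREBF2, which encodes the transcription factor SREBP2 of cholesterol synthesis, had log2 fold changes of 0.60 and 0.24. Measured against each member's own spread, the nearest genes were less like the low members. For ACSL4 they were AGBL3 (0.28), NLGN4Y (0.30) and ATP11A (0.30) against a spread of 0.54, for ACSL5 LRIG3 (0.27), SIK3 (0.30) and FRMPD2 (0.31) against 0.57, and for ACSL6 ZNF81 (0.21), PHF12 (0.22) and FAM111A (0.23) against 0.39. The libraries fix the groups for every gene, so this likeness includes the group means.

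Along the chromosome, the nearest tested genes that do not overlap the members did not have the size of the ACSL3 response. FARSB, 204.8 kb to its left, had log2 fold changes with DHT of 0.52 in sh_scramble and 0.43 in sh_TMEFF2, and KCNE4, 107.6 kb to its right, −0.40 and 0.13. Beside ACSL1, CENPU, 21.5 kb away, had 0.58 and 0.95. Leaving out genes that overlap it, such as ZDHHC6, ACSL5 lies between GPAM, 158.7 kb away and itself a glycerol-3-phosphate acyltransferase (−0.09 and 0.07), and VTI1A, 18.6 kb away (−0.09 and −0.04).

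Around the ACSL step, 7 lists of 76 genes were compared: fatty acid uptake, other acyl-CoA synthetases, acyl-CoA binding and hydrolysis, glycerolipid acylation, lipid droplets, the carnitine shuttle and lipid peroxidation control, of which 70 genes were tested. The lists were also chosen with earlier results of these data known, so their counts and adjusted p-values are descriptions. With DHT in sh_scramble 18 of 70 were called, 10 higher and 8 lower (5.45% and 6.45% of all tested genes), with a median log2 fold change of 0.02 against −0.01 over all genes. Users and carriers of the acyl-CoA moved in both directions. DBI, the acyl-CoA-binding protein, rose by 1.83 (SE 0.086, edgeR adjusted p = 4.93e-08), from 133 to 144 CPM up to 451 to 534 CPM. MBOAT2, which acylates lysophospholipids, rose by 1.97 (SE 0.092, adjusted p = 4.93e-08), while LPCAT4 of the same class fell by 1.30 (SE 0.098, adjusted p = 1.31e-06). Of 9 other synthetases, 4 were called, ACSM1, of medium-chain fatty acids, rising by 2.44 (SE 0.22, adjusted p = 5.59e-06) and ACSS1, of mitochondrial acetate, falling by 1.02 (SE 0.19, adjusted p = 0.00167). ACSM1 was at a low level, with a mean of 1.33 CPM without and 7.22 CPM with DHT. Of 6 carnitine shuttle genes the carrier SLC25A20 rose by 0.77 (SE 0.098, adjusted p = 9.98e-05) and CRAT fell by 0.82 on the log2 scale (SE 0.10, adjusted p = 8.76e-05). Of 9 droplet genes HILPDA, an inhibitor of lipolysis, rose by 0.83 (SE 0.12, adjusted p = 0.000235) and the coat protein PLIN4 fell by 1.39 (SE 0.25, adjusted p = 0.00121). PLIN4 was low, at a mean of 2.32 CPM without and 0.881 CPM with DHT. Of 12 binding and hydrolysis genes the largest fall was ACBD4 (−0.63, SE 0.15, adjusted p = 0.00785), which was under the fold limit, at −0.48, without sh_scramble +DHT replicate 2. None of the 7 tested uptake genes or the 8 tested peroxidation genes was called in any of the 5 comparisons by edgeR or DESeq2. In a single comparison at most 3 uptake genes and 2 peroxidation genes had an unadjusted edgeR p under 0.05. Some of them passed the adjusted p but stayed under the fold limit. With DHT in sh_scramble and in sh_TMEFF2, SLC27A2 rose by 0.37 and 0.49 (edgeR adjusted p = 0.00789 and 0.00377). TFRC rose by 0.36 and 0.38 (adjusted p = 0.00947 and 0.0149). SLC27A4, SLC27A5, SLC7A11 and NCOA4 also had adjusted p values under 0.05 among these comparisons.

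With DHT in sh_TMEFF2, 6 of 70 partner genes were called, 3 in each direction (3.28% of all genes higher and 1.6% lower), with a median of −0.05 against −0.02 over all genes. DBI (0.73, SE 0.084, adjusted p = 0.000438) and MBOAT2 (0.75, SE 0.090, adjusted p = 0.00051) rose in this line too, as did ACSM3 (0.70, SE 0.13, adjusted p = 0.00513). ACSF2 fell by 0.79 (SE 0.16, adjusted p = 0.00659), PLIN4 by 0.98 (SE 0.24, adjusted p = 0.0201) and CPT1C by 0.68 (SE 0.16, adjusted p = 0.0174). The calls of PLIN4 and CPT1C were lost without sh_TMEFF2 −DHT replicate 1 (adjusted p = 0.0625 and 0.0577), +DHT replicate 2 (0.073 and 0.0559) or +DHT replicate 3 (0.0901 and 0.0606), and that of PLIN4 also without −DHT replicate 3 (0.0642). Between the lines without DHT, where 0.298% of all genes were called higher and 0.272% lower, 1 partner gene was called, ACSM1 (1.08, SE 0.22, adjusted p = 0.04), a call that held only without sh_TMEFF2 −DHT replicate 3, +DHT replicate 1 or +DHT replicate 3 and was lost on leaving out any of the 9 other libraries (adjusted p = 0.031 to 0.146 over the 12 fits). With DHT, 6 of 70 were called, near the share over all genes (3.03% higher and 3.74% lower), ACSS1 higher in sh_TMEFF2 (0.82, SE 0.19, adjusted p = 0.0113) and 5 lower, among them ACSM1 (−1.31, SE 0.20, adjusted p = 0.000825), DBI (−1.03, SE 0.084, adjusted p = 8.08e-06) and MBOAT2 (−1.52, SE 0.091, adjusted p = 9.01e-07). The medians were 0.03 without and −0.05 with DHT, against −0.004 and 0.004 over all genes.

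The response to DHT differed between the lines for 6 of 70 partner genes. The log2 fold change was lower in sh_TMEFF2 for 5 and higher for 1 (3.29% and 1.65% of all genes). The median difference over the partner genes was −0.05, against 0.006 over all genes. The difference was −2.39 for ACSM1 (SE 0.30, adjusted p = 0.000814), −1.21 for MBOAT2 (SE 0.13, adjusted p = 0.000282), −1.10 for DBI (SE 0.12, adjusted p = 0.000343) and 0.79 for LPCAT4 (SE 0.14, adjusted p = 0.00538). For SLC25A20 it was −0.55 (SE 0.14, adjusted p = 0.0407), and this call held only without sh_scramble −DHT replicate 1, sh_scramble +DHT replicate 3 or sh_TMEFF2 −DHT replicate 1 and was lost on leaving out any of the 9 others (adjusted p = 0.0275 to 0.109 over the 12 fits). The sixth was LPIN1, a phosphatidate phosphatase (−0.70, SE 0.14, adjusted p = 0.0145). LPCAT4 fell with DHT in both lines, at log2 fold changes of −1.30 in sh_scramble and −0.51 in sh_TMEFF2. Its positive difference is thus a smaller fall. ACSL3 stood beside these with its −1.98, and ACSL1 with −0.39. The DHT comparisons of the lines have no library in common, but each shares libraries with the comparisons between lines.

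**Figure D4:**
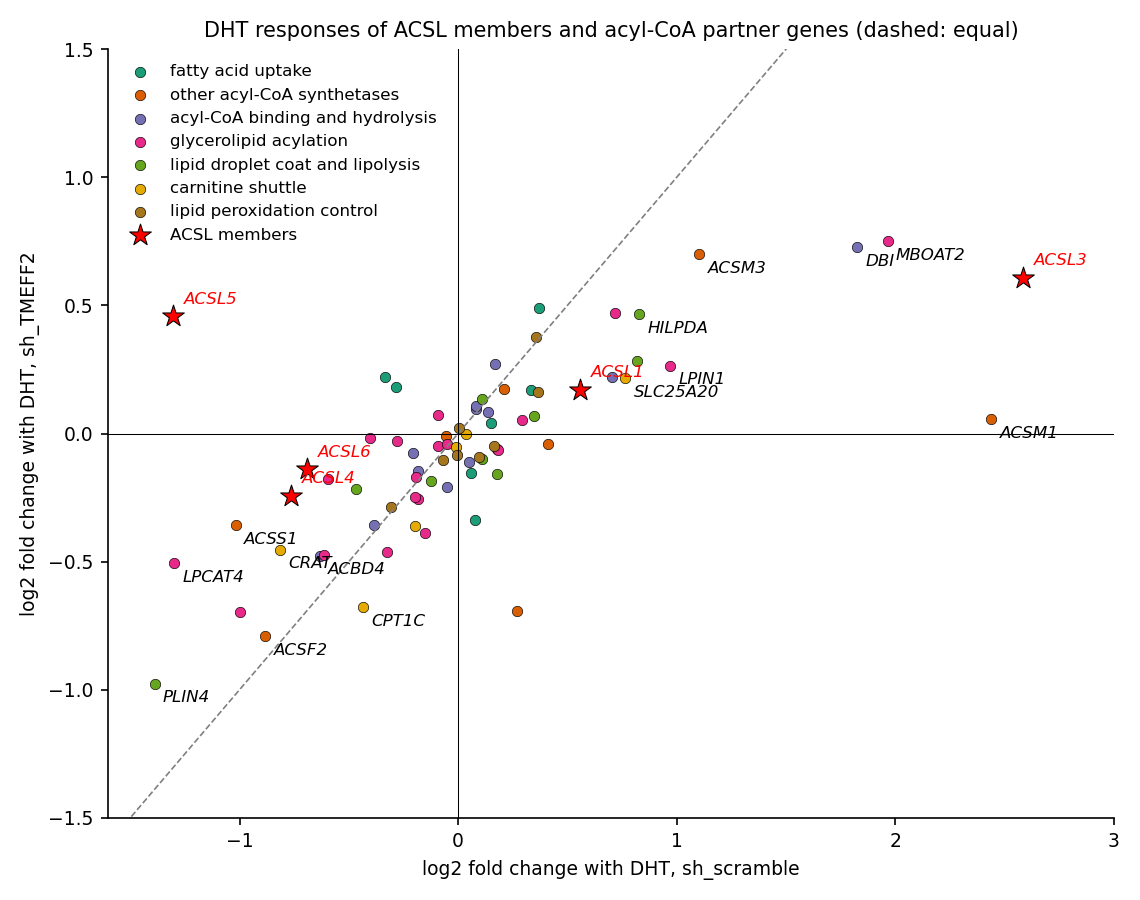
Log2 fold change with DHT in sh_scramble (horizontal axis) and in sh_TMEFF2 (vertical axis) for the 70 tested partner genes, coloured by list, and the 5 ACSL genes (stars); the dashed line marks equal responses. ACSL3 (2.59 and 0.61), MBOAT2 (1.97 and 0.75) and DBI (1.83 and 0.73) lie well below the dashed line, ACSM1 (2.44) lies at 0.05 on the vertical axis, and ACSL5 is at −1.30 and 0.46.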

How the data were processed

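LNCaP RNA was sequenced as 75-base paired-end reads. Per the labels and the study's methods, the authors trimmed reads with Trimmomatic, quantified them with kallisto (version 0.42.3, GRCh38) and deposited estimated counts per gene scaled by transcript length, in 24 columns, 2 for each of the 12 libraries. No column was left unassigned. The columns of a library were closer to each other (chi-square ratio to sampling noise 2.48 to 2.77) than libraries of a group (4.07 to 5.04) and were summed and rounded. The members and the lists were chosen with earlier results of these data known. edgeR (version 4.0.16, R version 4.3.3) was used with TMM scaling, filterByExpr (minimum count 10) and a quasi-likelihood fit of all 12 libraries with 1 mean per group. Levels are TMM-scaled CPM, and an SE is the absolute log2 fold change over the square root of F. Calls needed a fold change of 1.5 and a Benjamini-Hochberg adjusted p of 0.05 over all 15419 genes, the difference of responses the p alone. Named were the 5 members, the called gene with the largest rise and fall per list and comparison (mean of at least 1 CPM) and the 3 genes most like each member. LPIN1, and the uptake and peroxidation genes that passed the adjusted p alone, were named after their values were seen. The scripts were tested on simulated data. Alternatives were DESeq2 (version 1.42.0), other scaling and filters, the 6 libraries of a comparison, 1 column, each library left out, and the replicate number as a block. One marker gene, and the sum of luminal markers it belongs to, are not reported here.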

Additional observations from a re-analysis of the deposited data

Results flagged for a closer look

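The response to DHT differed between the 2 lines for 7 of the genes described, and each is given here because of that difference, taken as the sh_TMEFF2 minus the sh_scramble log2 fold change. Among the ACSL genes it was ACSL3, at −1.98 (SE 0.16). ACSL3 was selected with its levels known, and the partner lists were chosen with earlier results known, so the values given here are descriptions. Among the partner genes, edgeR gave −2.39 for ACSM1 (adjusted p = 0.000814), −1.21 for MBOAT2 (adjusted p = 0.000282), −1.10 for DBI (adjusted p = 0.000343), 0.79 for LPCAT4 (adjusted p = 0.00538), −0.70 for LPIN1 (adjusted p = 0.0145) and −0.55 for SLC25A20 (adjusted p = 0.0407). For MBOAT2, DBI and ACSL3 the DHT-treated libraries were above the untreated ones in both lines, 3 of 3 in each. For ACSM1 they were so in sh_scramble, with a fold change of 5.43, while in sh_TMEFF2 the ranges of 2.55 to 3.22 CPM without and 2.23 to 3.66 CPM with DHT overlapped. LPIN1 went from 88.6 to 110 CPM up to 180 to 194 CPM in sh_scramble, and overlapped in sh_TMEFF2, at 82.6 to 98.5 and 95.2 to 117 CPM. LPCAT4 fell in both lines, at log2 fold changes of −1.30 in sh_scramble and −0.51 in sh_TMEFF2.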

How the results depend on the processing

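No log2 fold change of a member that was past the limits changed sign under any alternative. Of 510 recomputed member values, 504 moved by less than the spread within groups. This tally says little about stability, since 300 of the 510 came from fits with 1 library left out. Leaving out 1 of 3 libraries moves a group mean little against that spread. The 6 that moved more were ACSL4, ACSL5 and ACSL6 values from only 1 of the 2 columns of each library, and the cause was not tested. The number of members past the limits with DHT in sh_scramble was 3, and 1 with a mean above 5 CPM required (only 3 members are then tested), with the first column only and with the second column only. It was 1 to 4 with 1 library left out. Among the other alternatives that tested it, ACSL5 was past the limits in 6 of 8 and ACSL6 in 5 of 8. With DHT in sh_TMEFF2 the number of members was 1, 0 with the first column only, and 0 to 1 with 1 library left out. Between the lines with DHT it was 2, 1 with the 5 CPM filter, the first column or the second column, and 1 to 2 with 1 library left out. For the difference of responses it was 1, 2 with DESeq2 and with library size scaling (ACSL3 and ACSL5), and 1 to 2 with 1 library left out. The partner genes called between the lines without DHT were 1, and 0 with the 5 CPM filter, with only the 6 libraries, with the first column and with the second column, and 0 to 1 with 1 library left out. Other partner counts stayed within 1.5 times. With 1 column per library the calls of ACBD4 and PLIN4 with DHT in sh_scramble, of PLIN4, CPT1C and ACSF2 with DHT in sh_TMEFF2, of ACSS1 between the lines with DHT and of LPCAT4 and SLC25A20 for the difference of responses were lost in at least 1 of the 2 fits (PLIN4 −0.76 and −0.54 with the first column). Library size scaling ended the call of SLC25A20 (−0.48), and so did testing without a filter.

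Over all genes, calls between the lines without DHT were 46 higher and 42 lower. They were 97 and 83 with DESeq2, 88 and 69 without a filter, 27 and 19 with only the 6 libraries, 20 and 26 with the first and 27 and 23 with the second column. Calls for the difference of responses were 254 and 507, and 479 and 726 with DESeq2.

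The main fit did not treat the replicate numbers as pairs, under a rule that every same-numbered pair correlate above 0.1. In their deviations from group means, same-numbered libraries correlated at −0.0017 to 0.169 (median 0.072), with 3 of 18 pairs over 0.1. Other pairs correlated at −0.140 to 0.0658 (median −0.028), and 11 of 12 libraries correlated best with their own number. The numbers thus share a weak structure that the main fit leaves out. A fit with a replicate block gave 1 member past the limits between the lines without DHT (ACSL4) where there was none, 2 for the difference of responses (ACSL1 and ACSL3), and 4 with DHT in sh_scramble (ACSL4 in addition). It gave 73 higher and 71 lower genes between the lines without DHT, and 432 and 688 for the difference. Depth limits ACSL5 most, at 8.30 to 37.0 estimated counts per library.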
